A study of Mus musculus with 2 samples.

Results

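Genes that cells switch on when they sense interferon fall into named families, and 67 of the 21485 protein-coding mouse genes with a known strand belonged to them by symbol. They were 19 Ifi genes with a number, 6 Ifit, 7 Ifitm, 9 Irf, 3 Isg, 11 Oas, 10 Gbp and 2 Stat genes. Mx1 and Mx2, the remaining family the names cover, are annotated as transcribed pseudogenes in the RefSeq gene table and were therefore not among the protein-coding members. The mark studied was trimethylation of histone H3 at lysine 4 (H3K4me3), which sits at promoters of active and poised genes. It was mapped by ChIP-seq in MEL cells, a line of transformed mouse erythroid precursors, after 5 days in 2% dimethyl sulfoxide (DMSO), which drives them to mature. The group held 2 biological replicates, and neither untreated cells nor cells given interferon were analysed here, so every value is a level in treated cells and not a response.

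Interferons are secreted proteins that bind receptors on the cell surface and, through JAK kinases, activate STAT transcription factors. With IRF9, STAT proteins form a complex that binds the interferon-stimulated response element, while STAT dimers bind the gamma-activated site. The genes under these elements encode sensors, GTPases and enzymes that restrict viruses and intracellular bacteria, and several families grew by tandem duplication, so that their members lie in clusters.

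Marked genes are those with a peak of each replicate within 1000 bp of the 5' end, on either side or over it. By that rule 30 of the 67 members were marked, which is 44.8% (95% Wilson interval 33.5% to 56.6%, counting error only), against 47.1% of all protein-coding genes. The members' share therefore lay near that of all genes. The counts differed between families, most of which are small. All 3 Isg genes, both Stat genes and 7 of 9 Irf genes were marked, as were 4 of 6 Ifit, 5 of 10 Gbp, 4 of 11 Oas, 4 of 19 Ifi and 1 of 7 Ifitm genes. Another 2 members, Oas2 and Ifi44, had a peak in replicate 2 alone, against 1.14% of all genes with a peak in 1 replicate alone, and 35 had none in either replicate.

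**Figure D1:**
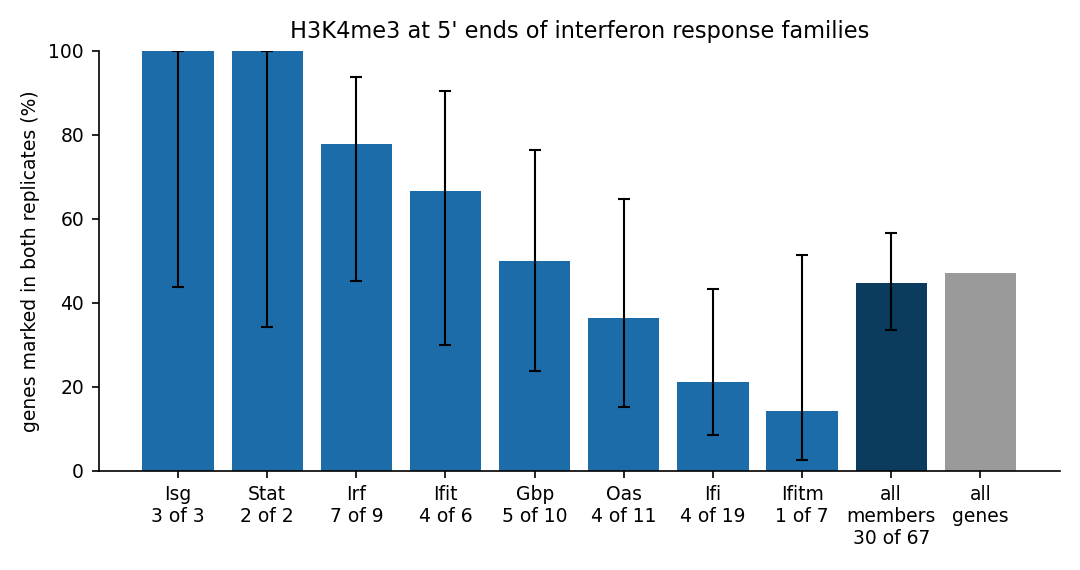
Share of genes marked in both replicates (vertical axis, %) for each family, for all 67 members and for all 21485 genes, with 95% Wilson intervals for the families and members. The families ran between 100% for Isg and Stat and 14.3% for Ifitm, and the members together stood at 44.8% beside 47.1% for all genes.

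Promoter sequence was read from a RefSeq table of GRCm38.p6 (the assembly behind mm10), which held 53 of the 67 members. The core of the interferon-stimulated response element, taken as GAAA, any 2 bases and GAAA again on either strand with overlapping matches counted, occurred within the 300 bases around the start in 26 of these 53 promoters, or 49.1%, against 3.4% of all 17492 promoters. The 7 promoters below show that the core was present both where H3K4me3 was found and where it was not. Each is the 250 bases before the listed start, written 5' to 3' on the gene's strand, with the matches in capitals. Isg15 (chr4:156200819-156201068, minus strand), Ifit1 (chr19:34640639-34640888, plus), Oas1c (chr5:120812515-120812764, minus) and Gbp2 (chr3:142620413-142620662, plus) were marked. Oas1a (chr5:120907526-120907775, minus), Ifi206 (chr1:173491319-173491568, minus) and Ifi214 (chr1:173535958-173536207, minus) were not.
Isg15: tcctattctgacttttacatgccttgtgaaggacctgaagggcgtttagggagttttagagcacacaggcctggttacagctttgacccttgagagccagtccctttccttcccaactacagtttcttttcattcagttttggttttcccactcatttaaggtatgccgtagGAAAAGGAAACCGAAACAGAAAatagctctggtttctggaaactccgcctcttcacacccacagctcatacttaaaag
Ifit1: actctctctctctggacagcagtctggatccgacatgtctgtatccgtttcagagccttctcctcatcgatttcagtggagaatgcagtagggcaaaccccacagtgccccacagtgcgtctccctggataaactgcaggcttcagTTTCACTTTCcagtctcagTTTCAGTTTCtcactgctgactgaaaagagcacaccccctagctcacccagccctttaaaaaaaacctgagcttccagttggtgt
Oas1c: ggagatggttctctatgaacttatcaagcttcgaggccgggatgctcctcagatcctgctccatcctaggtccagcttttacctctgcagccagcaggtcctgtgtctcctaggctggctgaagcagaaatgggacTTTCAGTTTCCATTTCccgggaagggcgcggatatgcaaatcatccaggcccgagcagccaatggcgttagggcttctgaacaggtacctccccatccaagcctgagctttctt
Gbp2: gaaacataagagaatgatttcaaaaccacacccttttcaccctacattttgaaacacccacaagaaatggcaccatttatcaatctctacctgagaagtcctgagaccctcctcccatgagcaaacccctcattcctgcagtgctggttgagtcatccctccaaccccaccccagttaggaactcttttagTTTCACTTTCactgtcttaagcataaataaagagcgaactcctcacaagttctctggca
Oas1a: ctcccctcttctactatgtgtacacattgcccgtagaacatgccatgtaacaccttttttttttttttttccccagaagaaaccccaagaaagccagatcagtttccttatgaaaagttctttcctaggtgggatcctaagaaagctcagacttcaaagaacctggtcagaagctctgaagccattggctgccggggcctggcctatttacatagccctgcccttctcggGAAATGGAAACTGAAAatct
Ifi206: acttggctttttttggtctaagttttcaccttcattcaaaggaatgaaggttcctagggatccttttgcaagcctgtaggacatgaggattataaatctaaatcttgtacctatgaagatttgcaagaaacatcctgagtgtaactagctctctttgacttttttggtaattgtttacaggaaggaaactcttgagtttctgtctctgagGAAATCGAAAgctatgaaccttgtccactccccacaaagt
Ifi214: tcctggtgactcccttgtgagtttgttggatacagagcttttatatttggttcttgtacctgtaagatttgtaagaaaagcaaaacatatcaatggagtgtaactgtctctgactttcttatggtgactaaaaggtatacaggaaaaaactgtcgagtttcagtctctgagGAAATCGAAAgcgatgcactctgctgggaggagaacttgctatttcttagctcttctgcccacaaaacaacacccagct

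The core occurred in marked and unmarked members. It was found in 13 of 25 marked members (52%), against 3.07% of all marked genes, and in 13 of 28 unmarked members (46.4%), against 3.7% of all unmarked genes. Read the other way, 13 of the 26 members with a match were marked (50%), against 42.9% of all 595 genes with a match, and 12 of the 27 members without a match were marked (44.4%), against 47.7% of all genes without one. Matches were read at the listed start and marks at the 5' end used, and these can lie apart. Ifitm2, counted as unmarked, was marked at its listed start, 3725 bp away. Ifit1bl1, counted as marked, was not marked at any listed start. Isg15 had the most matches, 3 that overlap, with first bases 78, 72 and 66 bases before the start. All 5 tabled Gbp promoters of chromosome 3 had a match, among them unmarked Gbp2b. Ifit1 and Ifit1bl2 start 62 bp apart on opposite strands, and the same stretch of DNA gave both their matches. Runs of shared bases were sought between promoters that do not overlap on the chromosome, which leaves out the pair of Ifit1 and Ifit1bl2. Most unmarked members with a match share such a run of at least 36 bases with another member's promoter, and no marked member did. The unmarked members with a match and such a run are Ifi205, Ifi206, Ifi208, Ifi211, Ifi213, Ifi214, Ifit3, Ifit3b, Oas1a and Oas1g. Such runs are described below, and their part in the motif counts was not tested.

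In most marked members with the core, the match itself lay inside a peak. Peaks of both replicates held a whole match in 12 of the 13 marked members, against 71.0% of the 255 marked genes of the genome that have a match. The exception was Ifit1bl1, whose listed RefSeq start lies 61.0 kb inside the gene as the gene table draws it. The gamma-activated site, TTCNNNGAA (the same on both strands), was found in 12 of 53 promoters (22.6%) and in 7.78% of all promoters. It occurred in 8 of 25 marked members (32%), against 6.74% of all marked genes, and in 4 of 28 unmarked members (14.3%), against 8.72% of all unmarked genes. A TATA box, TATAAA on either strand, was found in 16 of 53 (30.2%) and in 13.3% of all promoters. It occurred in 5 of 25 marked members (20%), against 6.51% of all marked genes, and in 11 of 28 unmarked members (39.3%), against 19.5% of all unmarked genes. These matches describe letters in a window and do not show that a factor bound there.

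Members were mostly of the CpG-poor promoter type. Of the 67, 36 lie in 5 clusters of related copies (p200, Ifit, Oas1 to Oas3, and Gbp on chromosomes 3 and 5). Further clusters hold 5 Ifitm genes, 3 Ifi27 genes, and the Ifi44 and Oasl pairs. Genes of a cluster are not independent of each other. CpG content was also read at the listed start, while marks were counted at the 5' end used. The ratio of observed to expected CpG in the 300 bases was at or below the median of all promoters, 0.577, in 46 of the 53 members. Of these 46, 19 were marked (41.3%, Wilson interval 28.3% to 55.7%), against 19.1% of all genes with so few CpGs. Of the 7 members with more CpGs, 6 were marked (85.7%), against 75.9% of all such genes. The 6 that were marked were Irf1, Irf2, Irf3, Irf5, Isg20l2 and Stat2, and the unmarked one was Irf8, a factor of the myeloid and B-cell lineages with the highest CpG ratio of the members, 1.03. Among CpG-poor genes with a response element match, 11 of 24 members were marked (45.8%), against 24.5% of all 392 such genes.

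**Figure D2:**
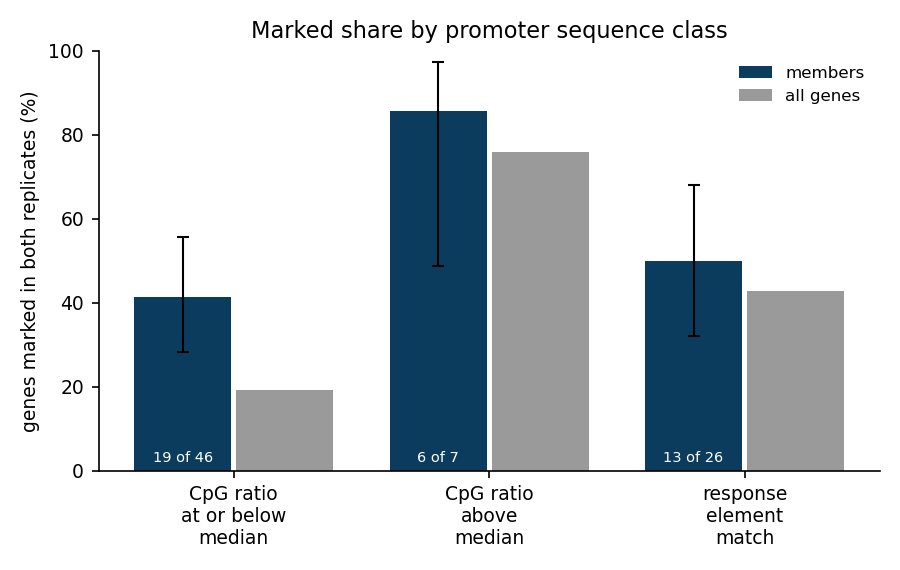
Share of genes marked in both replicates (vertical axis, %) for members (dark) and for all genes (grey) with a CpG ratio at or below the median, above it, and with a response element match, with 95% Wilson intervals for members. CpG-poor members stood at 41.3% beside 19.1% for all CpG-poor genes, and the intervals cover counting error only.

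Each peak carries an enrichment value given by the authors, whose scale is not stated, and a gene's value below is the highest among its peaks in the window. Peak sets carry no read counts. The depth behind a value is therefore unknown, and the spread of the 2 replicates is the only error at hand (mean ± SD, n = 2 throughout). A low value in a cell population can mean that few cells bear the mark or that each bears little of it, which cannot be told apart here. Over the 30 marked members the mean value had a median of 12.2, against 13.2 over all 10120 marked genes, and 12 of the 30 were above that median of all genes. In 8 members both replicates lay above it and in 15 both lay below it. Ranked by mean value, 28 of the 29 neighbouring pairs had overlapping replicate ranges, so the order of those neighbours was not resolved.

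Of the transducers of the interferon signal, Stat2, which serves type I and III interferons, had an enrichment value of 12.3 in replicate 1 and 14.9 in replicate 2, a mean of 13.6 ± 1.84. The replicates lay on either side of the median of all marked genes. Irf9, the DNA-binding subunit of the complex with STAT proteins, was lower at 5.24 and 8.91, a mean of 7.08 ± 2.60.

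Among the interferon regulatory factors the highest mean value belonged to Irf7, the factor that amplifies interferon gene transcription. It had 16.9 and 18.5, a mean of 17.7 ± 1.14, and both replicates exceeded the median of all marked genes. Irf5, known for inflammatory gene control in macrophages, had 11.1 and 22.8, a mean of 17.0 ± 8.27. It was the only marked member whose replicates differed by more than 2-fold, against 4.5% of all marked genes, and its rank therefore rests on replicate 2, which is also the highest single value of these factors. The replicate values of Irf7 lie within the range of those of Irf5, so their order is not resolved. Irf2, a repressor that competes with Irf1, had 17.1 and 14.0, a mean of 15.6 ± 2.14, and it had the widest domain of all members. Domains, in which neighbouring peaks no more than 1000 bp apart count as a single run, measured 4805 and 5583 bp at Irf2. Irf3, which responds directly to sensing of viral nucleic acid, had 11.8 and 10.5, a mean of 11.1 ± 0.928. Irf1 had 8.12 and 12.9, a mean of 10.5 ± 3.41. The 2 unmarked Irf genes, Irf4 and Irf8, are best known from lymphoid and myeloid cells.

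The Isg family had values between 14.01 and 15.2, except for Isg20 in replicate 1. Isg15, a ubiquitin-like protein joined to other proteins after interferon, had 14.59 and 14.61, a mean of 14.6 ± 0.0102. Its domain, 4691 and 4448 bp wide, also took in the 5' end of the neighbouring gene Perm1. Isg20, an exonuclease that degrades RNA, had 9.71 and 15.01, a mean of 12.4 ± 3.74, with domains of 2944 and 2885 bp. Isg20l2, a related nucleolar exonuclease of ribosome production, had 15.2 and 14.01, a mean of 14.6 ± 0.813. It shares its promoter region with Rrnad1, which starts on the other strand within 1000 bp, so the peak cannot be given to 1 of these genes.

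The 2'-5' oligoadenylate synthetase family, of which several but not all proteins make the second messenger that activates RNase L, divided by locus. Both genes of the Oasl pair were marked, while the separate cluster of Oas1 to Oas3 had 2 marked genes of 9. Oasl1, which in mouse represses translation of Irf7, had 14.8 and 13.5, a mean of 14.2 ± 0.918. Oasl2 had 6.81 and 9.23, a mean of 8.02 ± 1.71. In the cluster, Oas3 had 11.8 and 15.5, a mean of 13.6 ± 2.60, in domains of 2983 and 3119 bp. Oas1c had 14.4 and 14.5, a mean of 14.4 ± 0.0728, and the same peak covered the start of the transcribed pseudogene Oas1b on the other strand. Oas2 had a peak of 2.66 in replicate 2 and none in replicate 1. Oas1a, Oas1d, Oas1e, Oas1f, Oas1g and Oas1h had none in either.

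The guanylate-binding proteins, GTPases that attack vacuoles of intracellular pathogens, lie in clusters on chromosomes 3 and 5. On chromosome 3, 4 of 5 Gbp genes were marked, and on chromosome 5, 1 of 5. Gbp2 had 11.5 and 13.6, a mean of 12.5 ± 1.49. Gbp7 had 11.3 and 12.8, a mean of 12.04 ± 1.04. Gbp3 had 8.46 and 9.31, a mean of 8.89 ± 0.602, close to Gbp5 with 8.93 and 8.04. In each of these 4 the peak covered the 5' end in both replicates. The marked gene of chromosome 5, Gbp9, had only a peak 162 bp wide in replicate 1 and 204 bp in replicate 2, with values of 3.83 and 5.09. Gbp2b, Gbp4, Gbp6, Gbp8 and Gbp10 were unmarked. The chromosome 5 genes have no listed RefSeq start, so their count rests on the gene table's ends. Gbp6 had a peak of 7.28 and 8.54 further inside the gene. The older mm9 set, read at transcript starts, marked Gbp4 and Gbp6 as well as Gbp9. How far the contrast between the clusters depends on the 5' ends used was not tested.

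The Ifit proteins, which bind viral RNA with foreign 5' ends, had 4 of 6 genes marked, all with values under the median of marked genes. Ifit2 had 8.99 and 10.7, a mean of 9.86 ± 1.22. Ifit1bl1 had 6.81 and 5.87, a mean of 6.34 ± 0.666. Ifit1 and Ifit1bl2 had the same peak, at 5.22 and 6.73, because their 5' ends are 62 bp apart on opposite strands. Ifit3 and Ifit3b were unmarked. The peak counted for Ifit1bl1 lies at the gene table's 5' end, no RefSeq start listed for this gene was marked, and the older mm9 peak set did not mark it.

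Of the Ifitm proteins, membrane proteins of which several block virus entry, only Ifitm3 was marked at its 5' end. It had 11.4 and 15.2, a mean of 13.3 ± 2.70. Ifitm1, Ifitm2, Ifitm5, Ifitm6, Ifitm7 and Ifitm10 were not. Ifitm2 had peaks of 10.02 and 10.79 inside the gene, and its start in the RefSeq promoter table, 3725 bp downstream of the 5' end used, was marked. With listed starts counted beside the 5' ends, 2 Ifitm genes and 31 members were marked. At listed starts alone, 25 of the 53 tabled members were marked (47.2%), against 49.6% of all tabled genes.

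The numbered Ifi genes hold unrelated proteins. Ifi27, a mitochondrial membrane protein, had 13.6 and 14.1, a mean of 13.8 ± 0.414. Ifi35, a partner of NMI, had 13.8 and 13.7, a mean of 13.8 ± 0.0388. Ifi47, an immunity-related GTPase, had 5.15 and 4.53 at its 5' end, and a stronger peak of 13.6 and 12.8 further inside the gene, 4781 to 6091 bp downstream of that end in replicate 1. Ifi27l2a, a neighbour of Ifi27, had 4.11 and 4.03. Ifi44 had a peak of 4.12 over its 5' end in replicate 2 alone. Ifi27l2b, Ifi44l and the lysosomal thiol reductase gene Ifi30 were unmarked.

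**Figure D3:**
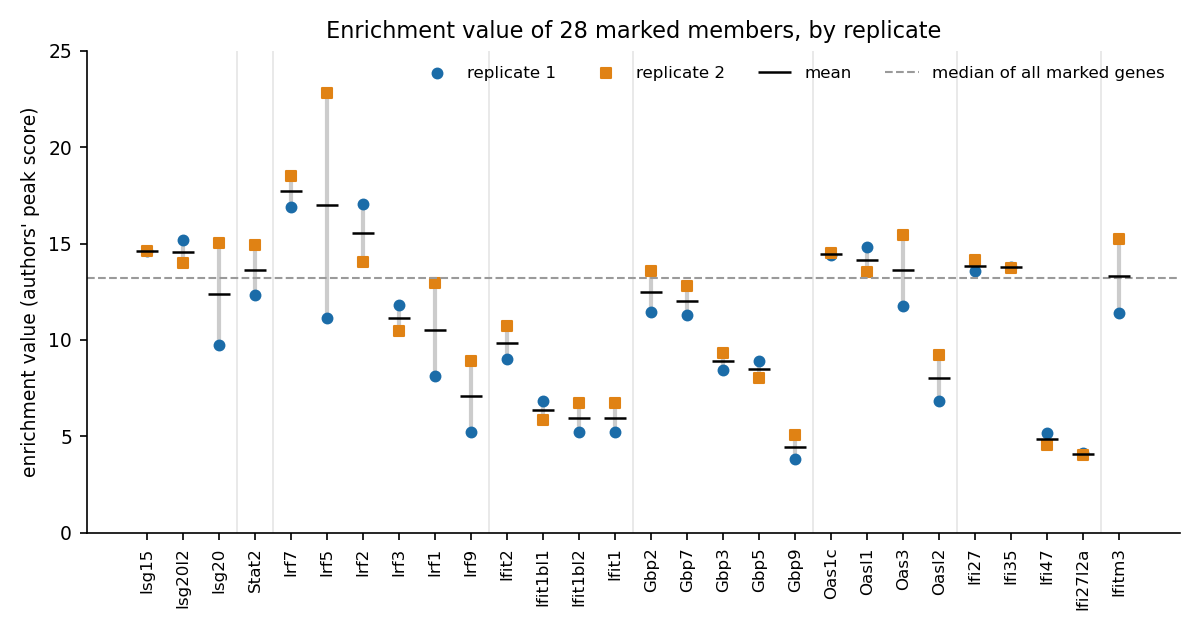
Enrichment value (vertical axis, the authors' peak score) of 28 marked members grouped by family, with replicate 1 as circles, replicate 2 as squares, a bar at the mean and a dashed line at 13.2, the median of all marked genes. Irf7 had the highest mean (17.7), the Ifit genes all lay below the line, and Irf5 had the widest gap between replicates.

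The other 11 numbered Ifi genes form the p200 cluster, a family of which several bind DNA, among them the DNA sensor Ifi204. None of the 11 was marked. They were Ifi202b, Ifi203, Ifi204, Ifi205, Ifi206, Ifi207, Ifi208, Ifi209, Ifi211, Ifi213 and Ifi214. The cluster spans 563 kb of chromosome 1 (chr1:173468485-174031755), and neither replicate had any peak within it. The stretch free of peaks was 714 kb long in each replicate, while chromosome 1 as a whole had 1.60 peaks per 100 kb in replicate 1 and 1.55 in replicate 2. Those densities are averages, and how often stretches of that length lack peaks was not counted. The cluster was not short of the response element core, which occurred in 7 of its 10 tabled promoters, and a TATA box also occurred in 7 of 10. CpG was scarce, with ratios between 0.0631 and 0.487.

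Several of these unmarked promoters are near copies of each other, and a read that falls wholly within a shared run cannot be placed by its sequence. The printed Ifi206 promoter shares an unbroken run of 182 bases with that of Ifi208, Ifit3 shares 169 bases with Ifit3b, Ifi214 shares 109 with Ifi209, and Oas1a shares 73 with Oas1g. Pairs of promoters that overlap on the chromosome, such as those of marked Ifit1 and Ifit1bl2, were left out of all these searches. In all, 11 of the 53 members with a tabled promoter share at least 36 bases, a length set by hand, with another member, and 0 of these 11 were marked. Of the other 42, 25 were marked. All 11 are CpG-poor, a class in which 19.1% of all genes were marked, and of the 35 CpG-poor members without such a run 19 were marked. Searched against the promoters of all tabled genes, 13 members shared a run of that length with another gene, all CpG-poor and 0 of them marked. Over the genome 6.89% of genes with such a run were marked. Among CpG-poor genes the share marked was 4.30% with such a run and 23.0% without one, where 19 of 33 members were marked. How reads with several matches were treated, and the read length, are not given in the sources used here, and the part of this in the missing peaks was not tested.

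**Figure D4:**
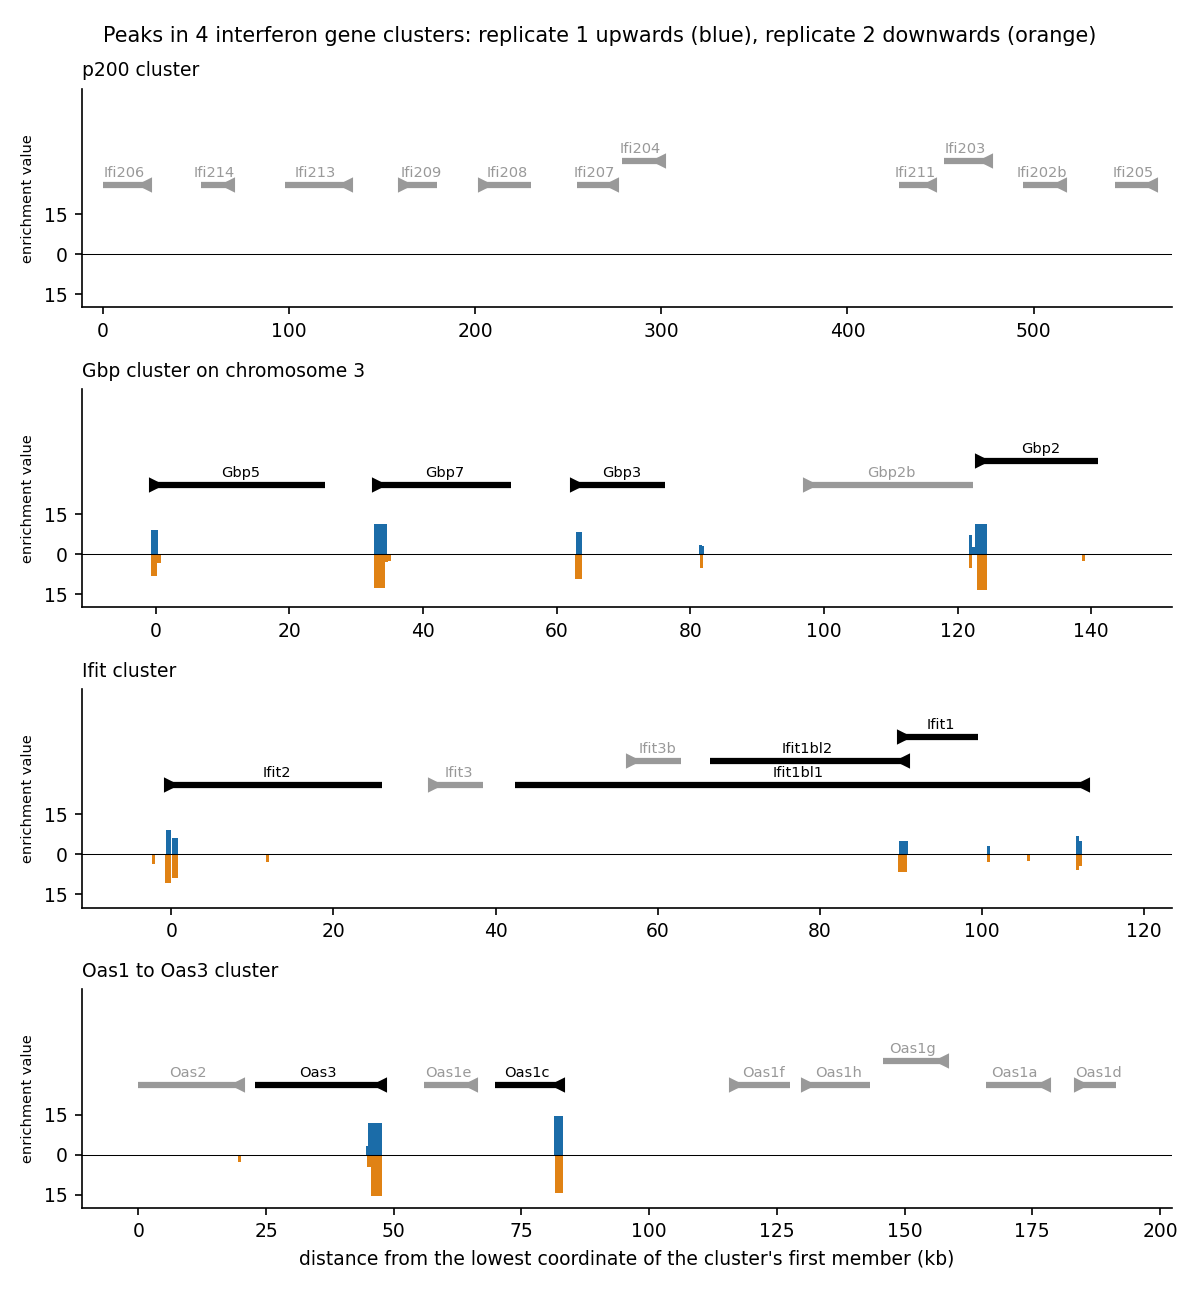
Peaks of replicate 1 (upwards) and replicate 2 (downwards) by enrichment value along 4 clusters, with distance in kb from the lowest coordinate of the first gene and genes drawn above (black marked, grey unmarked, arrowhead at the 5' end). The p200 cluster had 0 peaks over 563 kb, while 4 of 5 Gbp genes of chromosome 3, 4 of 6 Ifit genes and 2 of 9 genes of Oas1 to Oas3 were marked.

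The members' domains were narrower by median. Their mean width had a median of 1338 bp, against 2257 bp over all marked genes, and 8 of the 30 were wider than that median of all genes. The 5 widest were at Irf2 (mean 5194 ± 550.1 bp), Isg15 (4570 ± 172 bp), Irf5 (3707 ± 66.5 bp), Oas3 (3051 ± 96.2 bp) and Isg20 (2915 ± 41.7 bp). Under 1000 bp lay 6 of 30 members, against 5.83% of all marked genes, and at or above 5000 bp lay 1 of 30, against 4.19%. Members with few CpGs were narrow even beside other genes of that type, with a median of 1185 bp in 19 members and 1821 bp in all 1671 marked genes of low CpG ratio. The 6 marked members with many CpGs had a median of 2674 bp, against 2361 bp in all 6636 such genes.

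The members' cover was lower mainly farther from the 5' end, and more so downstream. At 250 bp downstream, a peak of both replicates covered 86.7% of marked members and 81.8% of all marked genes. At 500 bp it covered 66.7% of members and 85.3% of all, and at 1000 bp 23.3% of members and 67.5% of all. Upstream the shares were 76.7% of members and 76.1% of all at 250 bp, and 15 of 30 members and 64.0% of all at 500 bp. Among genes with few CpGs, 21.1% of marked members and 53.1% of all marked genes were covered 1000 bp downstream. The strongest peak's summit lay downstream of the 5' end in both replicates in 13 of 30 members (43.3%), against 60.1% of all marked genes.

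The 5' end base itself was inside a peak of both replicates in 14 of 30 marked members (46.7%), against 42.6% of all marked genes, and inside a peak of 1 replicate in 7 more. Over all 67 members the share was 20.9%, against 20.0% of all genes. At the remaining 9, among them Gbp9, Ifi27l2a, Ifi35, Ifit1bl1, Ifit2, Irf3, Irf9 and Stat2, no peak of either replicate covered it. At Stat2 peaks stood on both sides, with 126 uncovered bases between them in replicate 1 and 148 in replicate 2. The same form was seen at Ifit2, with 120 and 139 bases, and at Irf3, with 37 and 104 bases. At Ifi35 the peak began 8 and 6 bases downstream, so the gene table's 5' end lay at its edge. At Gbp9 and Ifi27l2a the peaks lay upstream only, ending 195 and 417 bp before the 5' end of Gbp9 and 261 and 139 bp before that of Ifi27l2a. At Ifit1bl1 they lay downstream only, 112 and 158 bp away. At Irf9 the nearest downstream peak was 168 and 179 bp away. In replicate 2 a peak also ended 18 bp upstream of its 5' end, with 196 uncovered bases between the peaks. Coverage of the start differed by promoter type, at 14 of 19 CpG-poor marked members (73.7%) and 52.4% of all CpG-poor marked genes. None of the 6 CpG-rich marked members had its start covered in both replicates, against 39.7% of all such genes. Irf1, Irf2, Irf5 and Isg20l2 of these had it covered in 1 replicate. In the other replicate the nearest peak edge was 10, 2, 9 and 104 bp away, so the count turns partly on a few bases.

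**Figure D5:**
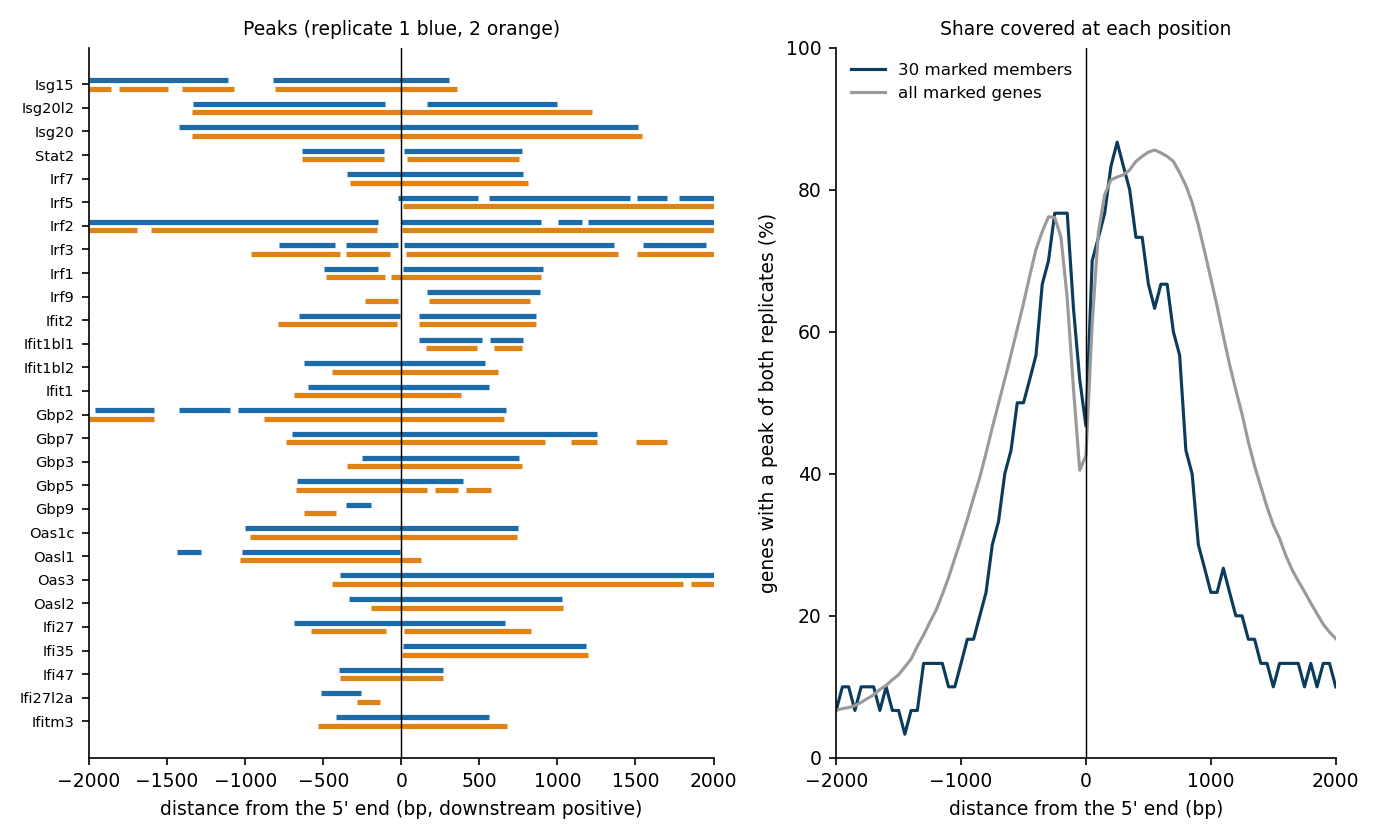
Left, peaks of replicate 1 (blue) and replicate 2 (orange) around the 5' end of 28 marked members, with distance in bp and downstream positive. Right, share of genes (%) with a peak of both replicates at each position for the 30 marked members and for all marked genes, which were 76.7% and 76.1% at 250 bp upstream and 23.3% and 67.5% at 1000 bp downstream.

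Promoter regions shared with a gene on the other strand were also counted. A second protein-coding 5' end lay on the opposite strand within 1000 bp in 4 of 30 marked members. That is 13.3% (Wilson interval 5.3% to 29.7%), against 20.6% of all marked genes. The 4 were Irf3 beside Bcl2l12, Isg20l2 beside Rrnad1, and Ifit1 and Ifit1bl2 beside each other, a single region counted for each gene. Over all 67 members it was 5, the addition being unmarked Ifitm7. That is 7.5% (Wilson interval 3.2% to 16.3%), against 10.8% of all genes. Each interval includes the share of all genes.

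Peaks away from the 5' end were counted at unmarked members as well. Of the 37 members not marked in both replicates, 4 had peaks of both replicates within the gene or 1000 bp of it. That is 10.8% (Wilson interval 4.3% to 24.7%), against 20.5% of all such genes, a share inside the interval. Among the 37 are the 11 genes of the p200 cluster, which are not independent of each other. Counted over the whole gene, 34 of 67 members had peaks of both replicates (50.7%, Wilson interval 39.1% to 62.3%), against 58.0% of all genes. At Gbp2b the peak, 11.5 and 13.6, was the one at the start of the next gene, Gbp2. At Gbp6 a peak of 7.28 and 8.54 lay 1686 to 2168 bp downstream of the 5' end in replicate 1, and Gbp6 was the only member gained when the window was widened to 2000 bp. The peaks in Ifitm2 are described above, and Ifitm10 had weak ones of 3.46 and 4.49 inside the gene, 19081 bp from its 5' end in replicate 1.

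Replicate 2 was higher than replicate 1 in 21 of 30 marked members (70%), against 64.1% of all marked genes. The 2 replicates had 48026 and 46950 peaks, with median enrichment values of 5.51 and 5.31. The labelled cell type was checked with marker genes. At the 5' end 9 of 10 erythroid markers were marked, among them Slc4a1 at 3.97 and 4.51 and Epb42 at 4.12 and 3.82, and Gata1 was not. Of 8 macrophage and granulocyte markers only Lyz2 was marked, at 2.61 and 3.39. None of 6 B- and T-cell markers was, and of 4 fibroblast markers Col1a1 was, at 4.51 and 5.82. Counting peaks of both replicates anywhere in the gene or within 1000 bp of it, the lists had 10 of 10 erythroid, 3 of 8 macrophage and granulocyte, 3 of 6 B- and T-cell and 3 of 4 fibroblast markers, against 58.0% of all genes. The peaks added in this way had 21.07 and 15.02 at Gata1, 10.3 and 16.9 at Cd4, 4.95 and 16.6 at Cd79a, 9.05 and 9.82 at Cd3d, 7.12 and 6.20 at Cd68, 4.63 and 2.73 at Itgam, 6.64 and 9.32 at Pdgfra and 3.64 and 4.11 at Thy1. The part of other cells in the members' peaks was not tested further.

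Genes of the interferon pathway outside these families were counted by role from a list, and 56 of 86 with a position were marked (65.1%), beside 47.1% of all genes. The ligands stood apart from the rest of the list, with 0 of 21 marked and 56 of the other 65. Of the 21, 17 type I interferon genes lie within 358 kb of chromosome 4 (chr4:88522025-88880201). That stretch held 16 peaks in replicate 1 and 17 in replicate 2, none of them in both replicates at the 5' end of a listed ligand. Genes of such a stretch are not independent of each other. The part of shared sequence in the ligands' missing peaks was not tested.

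The receiving end of the pathway was mostly marked. Of 6 receptor chains 5 were marked, led by Ifnar1 of the type I receptor, at 19.6 and 17.3, and Ifngr2 of the type II receptor, at 11.2 and 20.8. The unmarked chain was Ifnlr1, specific to type III interferon. All 3 kinases were marked, with Jak1 at 14.5 and 23.3 and Jak2 at 12.9 and 12.4. Of 5 other STAT genes, 4 were marked. Stat5a and Stat5b, which start on opposite strands within 1000 bp, had 7.83 and 16.5, and 6.01 and 16.5, and Stat4 was unmarked. At a listed RefSeq start inside the gene, Stat5b had 27.4 and 22.3, so the lower values belong to the 5' end used. Of 15 sensors and adaptors 11 were marked, with the RNA sensor Ddx58 (RIG-I) at 19.1 and 22.5 and the kinase Tbk1 at 20.14 and 19.05. The 4 unmarked were Sting1, Zbp1, Tlr7 and Tlr9.

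Negative regulators and further effectors completed the list. Of 11 regulators 10 were marked, led by the phosphatase genes Ptpn2, at 24.1 and 11.7, and Ptpn11, at 13.0 and 14.9. Ptpn6 was not marked at its 5' end and had peaks of 8.41 and 12.1 within the gene or 1000 bp of it. Of 25 further effectors 23 were marked, with the GTPase gene Igtp at 22.2 and 20.4 and the antiviral zinc-finger gene Zc3hav1 at 24.3 and 16.9. Iigp1 and Ciita were unmarked. Parp9 and Dtx3l start on opposite strands within 1000 bp and had the same values, as did Psmb9 and Tap1. Each such peak is counted for each gene of its pair. This list was put together with results of these data known, and its share is a description.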

How the data were processed

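The 2 samples, biological replicates of 1 group, were taken as labelled. The deposited files are peak sets. The authors called peaks per replicate, on pooled alignments and as a replicated set on mm10, per the file headers and notes, and deposited an older set on mm9. Aligner, caller, threshold and read length are not given in the sources used here. Column 7 holds a signal value by the authors, called the enrichment value; deposited q-values are on a −log10 scale. Positions are 1-based, on chromosomes 1 to 19, X and Y. Peak start, end and summit position are other deposited columns that were used as given by the authors.

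Python 3.11.15, numpy 2.4.6, pandas 2.3.3 and scipy 1.17.1 were used. The RefSeq table of GRCm38 genes gave the ends of 21887 protein-coding genes. Strand came from the RefSeq promoter table for 17492 genes and from GENCODE M1 by symbol for 3606 and by synonym for 387, and 402 genes had none. Of the members, 53 took strand from the promoter table and 14 from GENCODE. Each gene has 1 5' end, so internal promoters can be missed. The window, joining and coverage steps were tested on simulated data. The means take both replicate sets to be on the same scale. With 1 group no test between conditions was possible, and Wilson intervals cover counting error only.

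The members and lists were chosen with earlier results of these data known. By rule, every member was named (2 are not reported here), with values for the 3 highest marked members of each family, the 5 widest domains, members with a peak in 1 replicate, marked members with an uncovered 5' end, unmarked members with peaks inside, and the 2 highest of each pathway role. Other values, the CpG classes, the cover of motif matches and the shared runs of 36 bases were added after values were seen. Alternatives were windows of 500 and 2000 bp, −log10 q of at least 2 or 5, 200 bp of overlap, gaps of 0 and 3000 bp, the other deposited sets, the whole gene span, ranks within a set, and each replicate left out.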

Additional observations from a re-analysis of the deposited data

How the results depend on the processing

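Of 121 values recomputed under the alternatives, 116 stayed close to the value reported, counts within 1.5 times it and levels within the SD of the 2 replicates' medians. Many of the 121 are counts per family that also enter the member total. For levels, leaving out a replicate is judged against a spread set by the same replicates, so it is a weak check. The count of marked members, 30, ran between 27 and 34, and all genes between 45.7% and 58.0%. It was 27 with a −log10 q of at least 5 and with 200 bp of overlap, where Gbp9 and Ifi27l2a were among those lost each time, and 34 over the whole gene span. Leaving out a replicate gave 30 to 32 marked members. The pathway list had between 54 and 58 marked genes. Over the gene span 3 Ifitm genes were marked instead of 1. The median domain width of 1337.5 bp was 1112 bp with a gap of 0 bp and 1414 bp in the pooled set, and 1240.5 to 1386.5 bp with a replicate left out. Of the 10 highest members, 6 remained without replicate 1 and 9 without replicate 2. Counting any listed RefSeq start and using the older set were chosen after seeing the data. No paired analysis was possible because there is 1 group. Peaks without read counts leave depth unknown, and a weak peak in 1 replicate cannot be told apart from a missed one in the other.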

Other observations

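Of the pseudogenes that carry family names, Mx2 had peaks of 13.7 and 10.2 at its 5' end, in domains of 1788 and 2317 bp, and Mx1, Gbp11, Ifi203-ps and Gbp2-ps had none in either replicate. The older mm9 set, read at GENCODE M1 transcript starts, marked 29 of the 66 members found there, against 47.2% of 22225 genes. It had 26 members in common with the mm10 result. Gbp4, Gbp6 and Ifitm2 were marked in the older set alone, and 4 members, among them Ifi27l2a, Ifit1bl1 and Oasl1, on mm10 alone.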
